A study of Caenorhabditis elegans with 4 samples.

Results

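The regions described here are the CBP-1 peaks of chromosome II of Caenorhabditis elegans. They were chosen by position alone, as every peak on that chromosome in the series-wide peak list. That list held 954 of its 6300 peaks there, or 15.2% of the peaks on nuclear chromosomes. The chromosome II peaks of the replicate lists, 487 of 3122 in replicate 1 and 304 of 2004 in replicate 2, were set beside them. Chromatin of 2 samples was immunoprecipitated for CBP-1 and 2 samples were inputs, all from wild-type N2 embryos of mixed stages kept at 20 °C, with males and hermaphrodites mixed. The embryos came by bleaching from adults in liquid culture, so each sample pools many animals and stages, and CBP-1 was recovered with an affinity-purified rabbit polyclonal antibody. The labels do not say whether the replicates were separate cultures, so the spread between them may be technical. Input values were not used here, and the peak counts therefore stand without a measured background.

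CBP-1 belongs to the CBP/p300 family of co-activators, large proteins that are brought to promoters and enhancers by transcription factors and acetylate histones there. In mammals the binding of these proteins is widely used to find enhancers. Worm embryos need CBP-1 for the differentiation of several tissues. Worm autosomes have a central domain with little recombination and many conserved genes, flanked by arms that recombine more and hold more repeats and more silent chromatin. A ChIP peak is a stretch of genome where the immunoprecipitated DNA was called as enriched, and positions are in WormBase WS220. Names of genes under the peaks are not given, because no annotation of that build was used here.

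Peaks on chromosome II were short and covered little of it. The series-wide peaks had a median width of 265 bp, with the middle 50% between 196 and 376 bp, and covered 311 kb, or 2.03% of the 15.3 Mb to the end of the furthest peak. Replicate 1 peaks were wider, with a median of 414 bp and 1.58% of the length covered. Replicate 2 peaks were the narrowest, with a median of 155 bp and 0.456% covered. The median widths on the other nuclear chromosomes were 258, 428 and 160 bp in the same 3 lists. The score of a peak is the authors' own, on a scale not given in the sources used here, and it only ranks peaks within a list. Read counts are not part of the lists, and the depth behind a peak is unknown.

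As a whole, chromosome II carried a number of peaks close to that of the rest of the genome. It had 62.4 series-wide peaks per Mb (exact Poisson 95% interval 58.5 to 66.5), against 62.8 on the other nuclear chromosomes, a ratio of 0.995 (95% interval 0.928 to 1.07, exact binomial p = 0.902). Replicate 1 gave a ratio of 1.03 (0.932 to 1.13) and replicate 2 a ratio of 1.00 (0.883 to 1.13). Each of these intervals includes equal density.

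Within the chromosome the left arm had fewer peaks per Mb than the centre and the right arm in every list. Each of these segments spans 33.3% of the length. They were cut by length alone and need not match the central domain and arms described above. The left arm runs to position 5093125, the centre from there to 10186250, and the right arm from there to 15279375. A peak was placed by its midpoint. The series-wide list held 217 peaks in the left arm, or 42.6 per Mb (exact Poisson 95% interval 37.1 to 48.7). It held 407 in the centre, or 79.9 per Mb (72.3 to 88.1), and 330 in the right arm, or 64.8 per Mb (58.0 to 72.2). The left arm thus had 0.658 times the density of the right arm (0.551 to 0.783, exact binomial p = 1.55e-06, adjusted p = 6.19e-06 over 16 such ratios).

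Both replicate lists had the same deficit on the left. Replicate 1 held 109 peaks in the left arm and 177 in the right arm, a ratio of 0.616 (0.481 to 0.786, exact binomial p = 6.92e-05, adjusted p = 0.000184). Replicate 2 held 73 and 131, a ratio of 0.557 (0.413 to 0.748, exact p = 5.92e-05, adjusted p = 0.000184). Series-wide peaks overlapped in both replicate lists numbered 46 and 90, a ratio of 0.511 (0.350 to 0.737, exact p = 0.000202, adjusted p = 0.000461). These tests count each peak as independent, while peaks lie in groups, so their p-values are too small. With series-wide peaks less than 1 kb apart joined, the ratio was 0.713 (exact p = 0.000452). The replicates are also not independent of the series-wide list, since the series holds no ChIP samples beyond these 2.

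**Figure D1:**
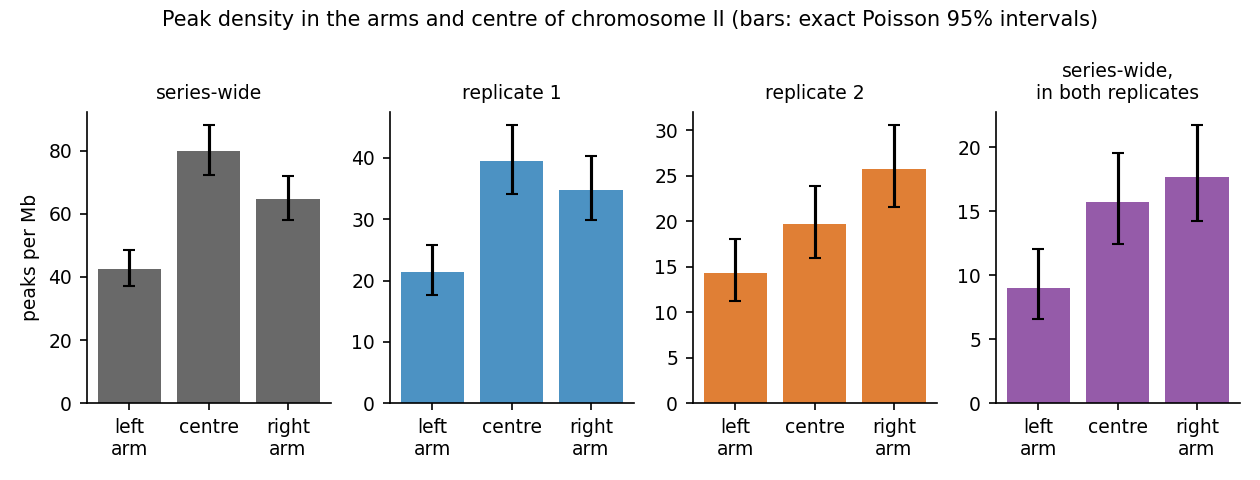
Peaks per Mb (y axis) in the left arm, centre and right arm of chromosome II (x axis), one panel for each list and one for series-wide peaks overlapped in both replicate lists; error bars are exact Poisson 95% intervals and the y scales differ. The left arm is the lowest bar in all 4 panels, while the tallest is the centre in the series-wide list (79.9) and in replicate 1 (39.5) but the right arm in replicate 2 (25.7) and among shared peaks (17.7).

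The lists differed on the centre. Series-wide peaks were 1.49 times as dense in the centre as in both arms combined (1.31 to 1.69, exact binomial p = 2.05e-09). In replicate 1 the ratio was 1.41 (1.17 to 1.69, exact p = 0.000253), with 201 peaks or 39.5 per Mb in the centre. In replicate 2 it was 0.980 (0.764 to 1.25, exact p = 0.903), with 100 peaks or 19.6 per Mb. Among peaks overlapped in both replicates it was 1.18 (0.881 to 1.56, exact p = 0.249). The denser centre was thus called in the series-wide and replicate 1 lists, and not in the replicate 2 list or among shared peaks. Against the left arm alone, the ratio was 1.88 in the series-wide list, 1.84 in replicate 1 and 1.74 among shared peaks. Each of these had an exact binomial adjusted p under 0.05. In replicate 2 it was 1.37 (1.00 to 1.88), which missed the threshold after adjustment (exact binomial adjusted p = 0.0642). Against the right arm alone, the centre was 1.23 times as dense in the series-wide list (1.06 to 1.43, exact p = 0.00508, adjusted p = 0.00813) and 1.14 times in replicate 1 (0.923 to 1.40, exact p = 0.237). In replicate 2 the centre had 0.763 times the density of the right arm (0.582 to 0.998, exact p = 0.0482), which missed the threshold after adjustment (adjusted p = 0.0642). With a centre from 5 to 12 Mb, the series-wide ratio of centre to arms was 1.66 (1.46 to 1.89, exact binomial p = 7.77e-15). Shared peaks and the replicate lists were not counted with those borders.

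Other autosomes did not show the imbalance of the arms to the same degree. Of the arm peaks of chromosome II, 39.7% lay on the left in the series-wide list, against 53.1% over the other 4 autosomes pooled (adjusted p = 2.76e-08 by Fisher's exact test over 6 comparisons). The shares on those autosomes ran from 46.2% on chromosome III to 57.6% on chromosome V, and chromosome X had 49.7%. In replicate 1 the left share was 38.1% on chromosome II and 52.4% on the other autosomes (Fisher's exact adjusted p = 8.18e-05). In replicate 2 it was 35.8% and 49.3% (Fisher's exact adjusted p = 0.00138), and among peaks in both lists 33.8% and 50.8% (adjusted p = 0.00233). Each other chromosome taken alone also differed from chromosome II at an adjusted Fisher's exact p under 0.05 in the series-wide list, in replicate 1 and among shared peaks. In replicate 2 that held for all but chromosome V, whose left share was 45.7% (Fisher's exact adjusted p = 0.0506). This comparison of arms with other chromosomes was added after the values of the arms were seen. The Fisher's exact tests here and below also count each peak as independent, so their p-values are too small. With series-wide peaks less than 1 kb apart joined, the odds ratio against the pooled autosomes was 0.636 (Fisher's exact adjusted p = 5.65e-05), in place of 0.582.

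The share of peaks in the centre set chromosome II apart far less. It was 42.7% in the series-wide list against 38.8% on the other autosomes (Fisher's exact adjusted p = 0.0453). Replicate 1 had 41.3% of its peaks there on chromosome II and 40.5% on the others (Fisher's exact adjusted p = 0.957). For replicate 2 the values were 32.9% and 34.8% (Fisher's exact adjusted p = 0.934). The call in the series-wide list was lost without the single run of 24 close peaks described further on, with an odds ratio of 1.10 (Fisher's exact adjusted p = 0.193) in place of 1.17. No peaks were taken out on the other autosomes, so this removal lowers the odds ratio by construction.

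**Figure D2:**
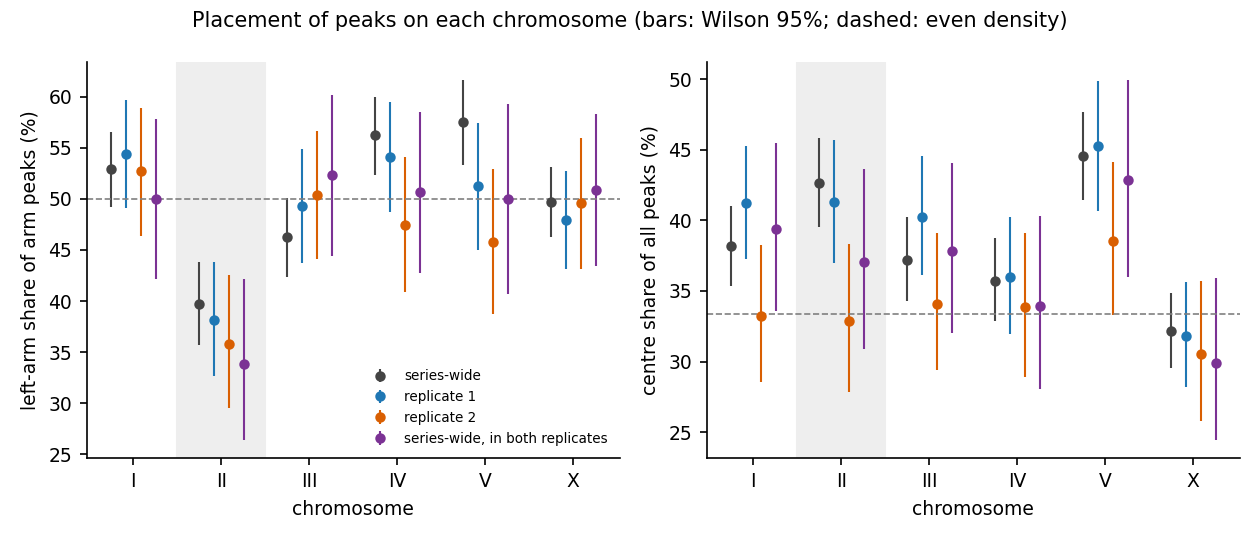
Left-arm share of the peaks lying in the arms (left panel, percent) and centre share of all peaks (right panel, percent) on each nuclear chromosome (x axis), with points for the 3 lists and for series-wide peaks in both replicates; bars are Wilson 95% intervals, dashed lines mark even density, and chromosome II is shaded. The 4 left shares of chromosome II, from 33.8% to 39.7%, lie below all those of the other chromosomes, whose lowest is 45.7%, while its centre shares lie among those of the others.

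In bins of 250 kb part of the poverty of the left arm lay in a single stretch. The 61 full bins held 3 to 48 series-wide peaks, with a median of 16 and the middle 50% between 11 and 19. Of the 9 bins with fewer than 8 peaks, which is 50% of the median, 8 lay in the left arm and 1 in the right arm. A run of 6 such bins covered positions 1250001 to 2750000. Those 1.5 Mb held 30 series-wide peaks, or 20 per Mb. Replicate 1 had 17 there (11.3 per Mb) and replicate 2 had 12 (8 per Mb). Of the 30 series-wide peaks, 8 were overlapped in both replicate lists. The stretch was picked for its low counts, so no test was made of it. The rest of the left arm held 187 series-wide peaks at 52.0 per Mb (exact Poisson 95% interval 44.9 to 60.1), and with the stretch and its length left out the ratio of left to right arm was 0.803 (exact binomial p = 0.0179). Replicate 1 had 25.6 peaks per Mb in the rest of the left arm, against 34.8 in the right arm. For replicate 2 the values were 17.0 and 25.7, so a deficit remained outside the stretch in each list. Taking low bins out of the left arm alone raises its density and the ratio by construction, so these values and the p-value are a description.

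The emptiest bin, 1750001 to 2000000, had a series-wide count of 3, with 2 in replicate 1 and none in replicate 2. Bins 1500001 to 1750000 and 4250001 to 4500000 each held 4 series-wide peaks. The bins 2500001 to 2750000 and 3000001 to 3250000 each held 5. All 5 of these bins lie in the left arm. In the bin from 1500001, 3 of the 4 series-wide peaks were overlapped in both replicate lists.

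**Figure D3:**
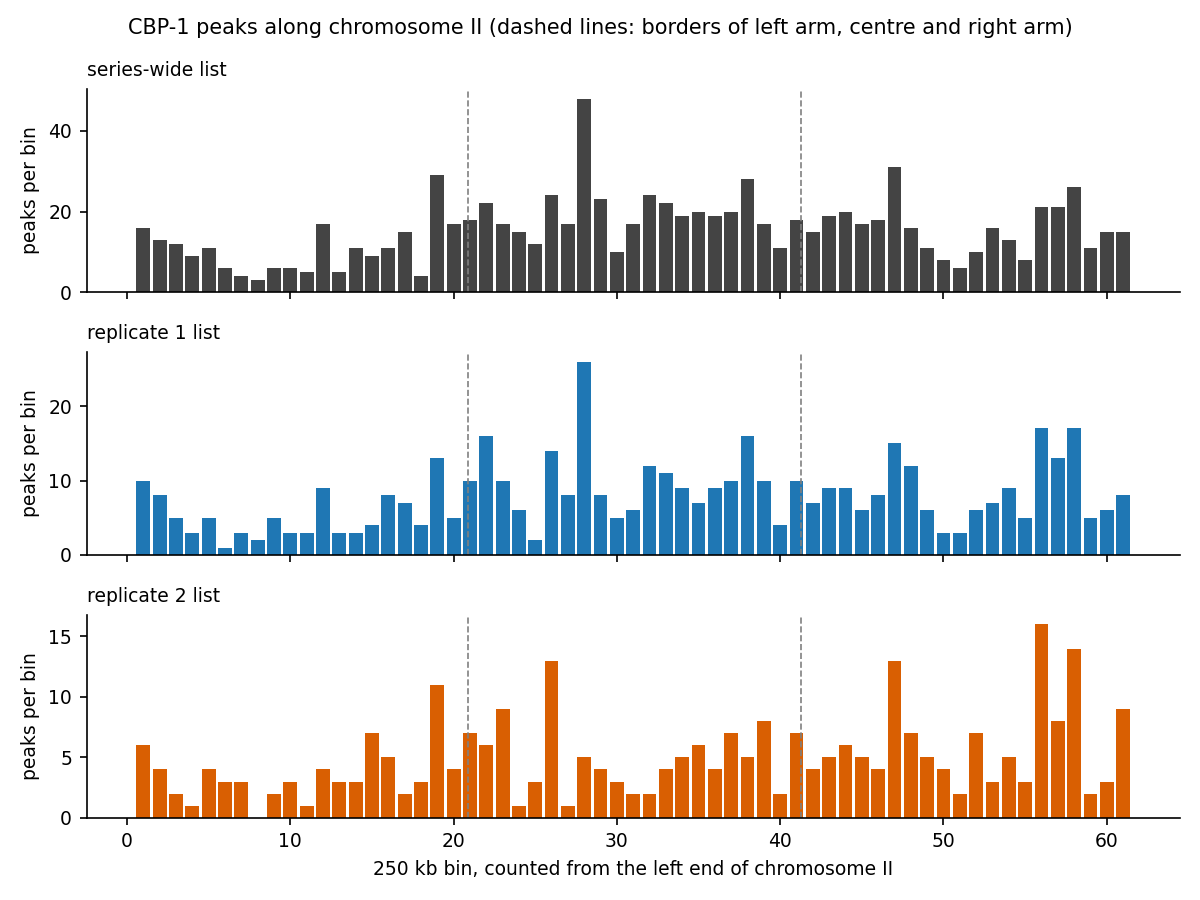
Number of peaks (y axis) in each full 250 kb bin of chromosome II, numbered from its left end (x axis), in the series-wide, replicate 1 and replicate 2 lists; dashed lines mark the borders of the arms and the centre. Counts are low from bin 6 to bin 11 in all 3 lists, and bin 28 stands at 48 and 26 peaks in the series-wide and replicate 1 lists but at 5 in replicate 2.

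Long stretches without any series-wide peak were also most extensive on the left. The longest, 304 kb from 1663801 to 1968156, was followed in the left arm by gaps of 171 kb (3119180 to 3290534), 144 kb (2455223 to 2599176), 141 kb (1520112 to 1661344) and 136 kb (2059268 to 2195504). No replicate peak of either list lay wholly within any of these 5 gaps. Few could, since 486 of the 487 replicate 1 peaks and 284 of the 304 replicate 2 peaks overlapped a series-wide peak. The longest gap and the one ending at 1661344 were parted only by a pair of peaks, at 1661345 to 1661598 and 1663532 to 1663800, each overlapped in both replicate lists. The longest gap of the centre was 104 kb (9787621 to 9891242) and that of the right arm 113 kb (14878826 to 14992158), and these too held no whole replicate peak. The median distance between neighbouring peaks was 13.0 kb in the left arm, 6.04 kb in the centre and 7.18 kb in the right arm. Gaps over 50 kb made up 49.9% of the length of the left arm, 20.9% of the centre and 34.8% of the right arm. Because the lists hold no depth, a gap is a stretch without a call and not one shown to be unbound.

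At the other end of the range, the fullest bins differed in what the replicates held. The bin 6750001 to 7000000 had 48 peaks in the series-wide list, 26 in replicate 1 and 5 in replicate 2. The next was 11500001 to 11750000, in the right arm, with 31 series-wide, 15 replicate 1 and 13 replicate 2 peaks. The left-arm bin 4500001 to 4750000 held 29, 13 and 11, the centre bin 9250001 to 9500000 held 28, 16 and 5, and the right-arm bin 14250001 to 14500000 held 26, 17 and 14. The right-arm bins had 10 series-wide peaks each in both lists, against 5 in each of the centre bins and 3 in the left-arm bin. Across the 61 bins, the counts of the replicates rose together, with Pearson's r of 0.641 and Spearman's rho of 0.702. Without the fullest bin r was 0.743. Bins of one chromosome share libraries and lie side by side, so these values are a description.

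The fullest bin owed its count to close runs of peaks. In the run from 6821028 to 6844978, 24 series-wide peaks lay within 23.95 kb, each less than 2 kb from the next. The run had 14 replicate 1 peaks and no replicate 2 peak. Of its 24 series-wide peaks 15 were overlapped in replicate 1 and 9 in neither list. Their series-wide scores ran from 4.05 to 22.95 with a median of 8.02, and the replicate 1 peaks had a median score of 81.0, with a range of 50.02 to 380.6. The series-wide median on the whole chromosome was 9.09 and the replicate 1 median 151. The run was chosen after its values were seen.

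The second longest run was of another kind. Between 13817611 and 13829753 in the right arm, 10 series-wide peaks lay within 12.1 kb, with a median width of 1104 bp and a median score of 55.6. Replicate 1 had 8 peaks there, with a median score of 939, and replicate 2 had 11, with a median score of 229. Both lists overlapped 7 of the 10 series-wide peaks, and the other 3 were overlapped in replicate 1 alone. Over the chromosome there were 16 runs of 5 or more peaks with gaps under 2 kb, 2 in the left arm, 6 in the centre and 8 in the right arm. They took in 120 peaks, or 12.6% of the total. Of the 55 peaks in runs of the centre, 2 were in both replicate lists, and of the 52 in runs of the right arm, 19 were. The 13 in runs of the left arm included none that both lists held.

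Replicate support on chromosome II was close to that of the genome. Of its 954 series-wide peaks, 216 or 22.6% (Wilson 95% interval 20.1 to 25.4) were overlapped by at least 1 bp in both replicate lists, where the share over all nuclear chromosomes was 21.8%. A further 286 were overlapped in replicate 1 alone, and 40 in replicate 2 alone. The remaining 412, or 43.2% (40.1 to 46.4), were in neither, against 45.2% over all nuclear chromosomes. The share in both did not differ detectably from that on the other chromosomes, which was 21.6% (odds ratio 1.06, Fisher's exact adjusted p = 0.496). Within the chromosome it was 21.2% in the left arm (16.3 to 27.1), 19.7% in the centre (16.1 to 23.8) and 27.3% in the right arm (22.7 to 32.3). The centre and the arms together did not differ past the threshold (Fisher's exact adjusted p = 0.121). With a reciprocal overlap of 50% they did (odds ratio 0.577, Fisher's exact adjusted p = 0.0458). With midpoints within 500 bp they did not (odds ratio 0.748, Fisher's exact adjusted p = 0.148). Nor did they above the median score (0.867, Fisher's exact adjusted p = 0.804) or without the run of 24 close peaks (0.798, Fisher's exact adjusted p = 0.283).

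Support followed the score steeply. The series holds no other ChIP samples than those of the replicate lists, so this is not an independent check of the peaks. When the 954 peaks were ranked by score and put in 5 classes of nearly equal size, 82.2% of the strongest class were in both replicate lists (Wilson 95% interval 76.2 to 87.0) and all 191 were in at least 1. In the second class 26.2% were in both (20.5 to 32.8), in the class of middle rank 2.62%, and in the weakest 0.526%, which was 1 peak of 190. The 48 peaks of highest score were all in both lists. The first that was not lay at 4130066 to 4130555, in the left arm, with a score of 55.33, and was overlapped in replicate 1 alone. The strongest class had 35 peaks in the left arm, 74 in the centre and 82 in the right arm. The next classes had 47, 77 and 67, then 52, 77 and 62, then 50, 86 and 55, and the weakest had 33, 93 and 64. No test was made of these counts. Among peaks above the genome-wide median score, the ratio of centre to arms was 1.27 (exact binomial p = 0.00971), compared with 1.49 over all peaks.

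Scores and widths moved together. The median score was 32.9 for peaks in both lists and 5.60 for those in neither, and their median widths were 404.5 and 196 bp. Peaks in 1 list lay between, at a score of 11.6 and 308.5 bp (medians). Since 1 bp suffices for an overlap, width itself bears on support. Over all 954 peaks the rank by width rose with the rank by score (Spearman's rho 0.683, a description across peaks of one list). Shared peaks of the right arm had a median score of 37.3, those of the centre 32.6 and those of the left arm 24.6. Their median widths were 433.5, 401 and 352 bp in the same order, and no test was made of these medians.

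**Figure D4:**
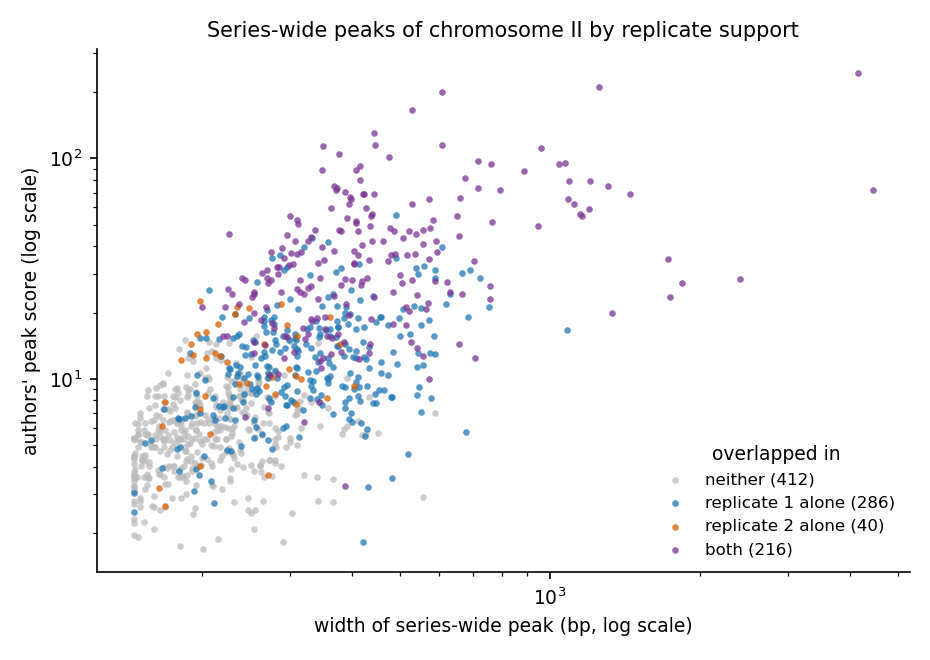
Authors' score (y axis, log scale) against width in bp (x axis, log scale) of the 954 series-wide peaks of chromosome II, coloured by the replicate lists that overlap them. Peaks in neither list, 412 in number, gather at the lower left around 196 bp and a score of 5.60, and the 216 in both lists reach from the middle to the upper right.

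The share of replicate 2 peaks that replicate 1 also held was lowest on the left. Replicate 1 peaks overlapped 243 of the 304 replicate 2 peaks, or 79.9% (Wilson 95% interval 75.1 to 84.1). Replicate 2 peaks overlapped 215 of the 487 replicate 1 peaks, or 44.1% (39.8 to 48.6). The same shares over all nuclear chromosomes are not given here, so these values do not set chromosome II apart. Replicate 2 peaks of the left arm were in replicate 1 in 48 of 73 cases, or 65.8% (54.3 to 75.6). In the centre the count was 86 of 100, or 86.0% (77.9 to 91.5), and in the right arm 109 of 131, or 83.2% (75.9 to 88.6). In the other direction the centre was lowest. Replicate 1 peaks were in replicate 2 in 43.1% of cases in the left arm (34.2 to 52.5). That share was 39.8% in the centre (33.3 to 46.7) and 49.7% in the right arm (42.4 to 57.0). These differences along the chromosome were not tested. The 61 replicate 2 peaks that replicate 1 lacked were narrow, with a median of 113 bp against 176 bp for the shared ones, and scored lower, at a median of 58.4 against 93.9.

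Edges agreed less than places. In the 216 series-wide peaks with both replicates, the widest replicate 1 peak had a median width of 496 bp and was wider than the replicate 2 peak in 215 cases. The widest replicate 2 peak had a median of 178 bp and was wider than the series-wide peak in 1 case. Replicate 2 cut 23 of the series-wide peaks into pieces: 18 held 2 of its peaks and 5 held 3. Replicate 1 did so for 4 peaks, and 19 of its own peaks spanned 2 or more series-wide peaks. The callers named in the files differ between the replicate lists and the series-wide list, while both replicate lists name MACS. Widths compare lists and not binding, and why the replicates differ in width was not tested.

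A few replicate calls had no counterpart in the series-wide list. They were 20 of the 304 replicate 2 peaks and 1 of the 487 replicate 1 peaks. By segment the replicate 2 peaks were 9 of 73 in the left arm, 4 of 100 in the centre and 7 of 131 in the right arm. These counts were not tested, and the share over all nuclear chromosomes is not given here. The 20 replicate 2 peaks had a median width of 110.5 bp and scores from 50.48 to 120.7, and none overlapped a replicate 1 peak. Next to one another stood 3 of them in the left arm, at 4641266 to 4641576, 4641675 to 4642028 and 4642856 to 4643621. The last was the widest of the 20, at 766 bp. The replicate 1 peak covered 1798 bp from 6506206 to 6508003, at a score of 54.14. These peaks were named after their values were seen.

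The 10 series-wide peaks of highest score that both replicates held included 6 in the right arm, 3 in the centre and 1 in the left arm. Of all 216 shared peaks 41.7% lay in the right arm, 37.0% in the centre and 21.3% in the left arm, and the difference was not tested. All 10 of the strongest shared peaks were among the strongest 36 of replicate 1 and the strongest 49 of replicate 2 on this chromosome.

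The first of them lay in the right arm at 11757170 to 11761325. It had a series-wide score of 244.1, the highest of the genome, over 4156 bp. Replicate 1 had a peak of 4582 bp at a score of 3100, shared with 2 other peaks of its list on chromosome II. Replicate 2 placed 2 peaks inside it: one of 662 bp at 11759088 to 11759749 with a score of 3100, and one of 278 bp with a score of 92.02. The replicate 2 calls thus covered the middle of a much broader region in the other lists. A weak peak of score 4.97, overlapped in replicate 1 alone, lay 56 bp to its right. The score of 3100 was the highest on chromosome II in both replicate lists, and whether it is a ceiling is not stated.

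The second, at 14404613 to 14405868 in the right arm, had a score of 210.3 in the series-wide list, 3100 in replicate 1 and 1701 in replicate 2. Its width was 1256, 1534 and 657 bp in these lists. It sat in a run of 7 close peaks, and its neighbours 140 and 100 bp away scored only 4.90 and 6.17. The next peak, at 11545131 to 11545737, was narrow, with 607 bp and a score of 199.5 in the series-wide list. Replicate 1 gave it 702 bp and a score of 1992, and replicate 2 gave it 392 bp and a score of 615. That at 10563145 to 10563672, had scores of 165.7, 1400 and 536. All 4 lay in the right arm.

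In the centre the strongest peak was that at 8561139 to 8561581, with a score of 129.9 in the series-wide list, 1404 in replicate 1 and 523 in replicate 2. The peak at 10033342 to 10033947 had scores of 114.95, 1360 and 221, and that at 6588594 to 6589552 had 112.0, 1352 and 417. These 3 ranked 5, 6 and 9 on the chromosome. The right-arm peak at 11967337 to 11967782 also scored 114.95 in the series-wide list, with 892 in replicate 1 and 253 in replicate 2. The right-arm peak at 12102324 to 12102673 was short, with 350 bp, and had scores of 113.4, 1199 and 302.

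The strongest peak of the left arm, at 1320447 to 1320823, stood within the peak-poor stretch. Its scores were 104.7 in the series-wide list, 785 in replicate 1 and 205 in replicate 2. It ranked 10 on the chromosome, and a window of 50 kb centred on it held 3 series-wide peaks, itself included. The windows around the other 9 held 4 to 12. The left arm's next 2 lay near its inner border, at 4701225 to 4701940 (series-wide score 97.6, replicate 1 score 1287, replicate 2 score 199.8) and at 4376470 to 4377229 (94.9, 978 and 244 in the same order).

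**Figure D5:**
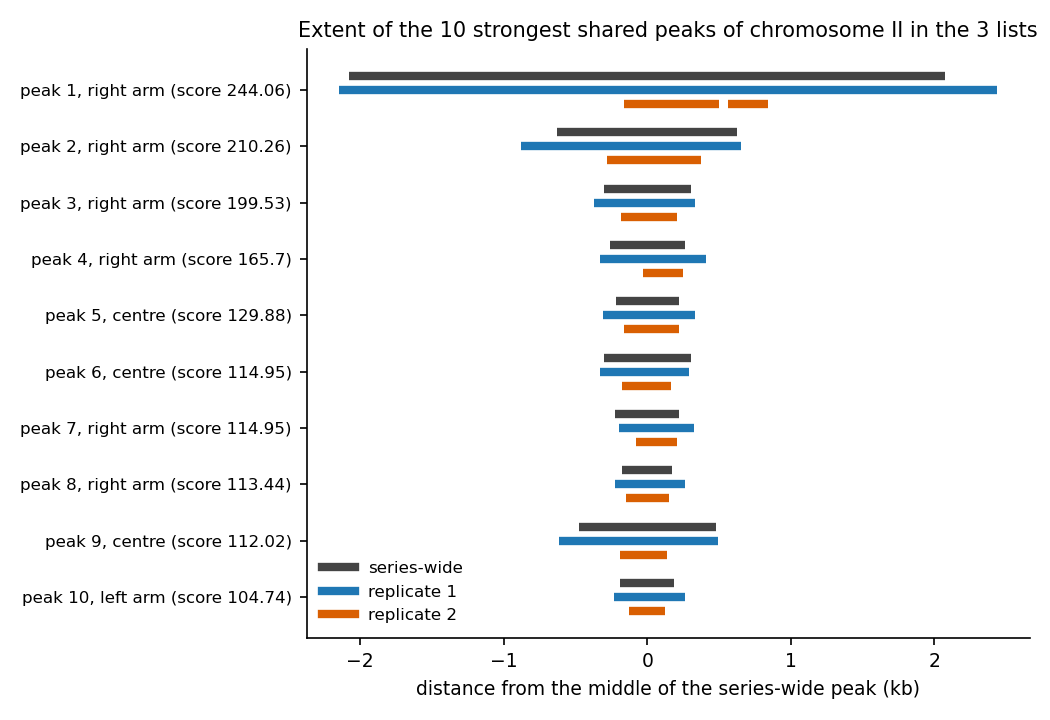
Extent of the 10 strongest shared peaks of chromosome II in the series-wide, replicate 1 and replicate 2 lists (coloured segments), as distance in kb from the middle of the series-wide peak (x axis); rows are ordered by series-wide score. Replicate 1 segments are wider than those of replicate 2 in every row, and in the first row a series-wide peak of 4156 bp meets replicate 2 segments of 662 and 278 bp.

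Broad peaks were few and ranked unlike in the lists. Only 3 series-wide peaks of chromosome II were wider than 2000 bp. The widest, 4447 bp of the centre at 8288322 to 8292768, had a series-wide score of 72.2, which ranked 28 on the chromosome. In replicate 1 it was a single peak of 4472 bp at the score of 3100, one of 3 tied at the top of that list on the chromosome. Replicate 2 had 2 peaks there, of 2761 and 1500 bp with scores of 1779 and 1071, which ranked 2 and 5 in its list. The strongest peak of the chromosome, described first, was the second widest. The last of the 3, 2405 bp at 12843659 to 12846063, ranked 142 in the series-wide list with a score of 28.5. Replicate 1 ranked its peak there 10, with a score of 1411, and replicate 2 held it as 3 peaks whose best, of score 329.8, ranked 21.

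The strongest series-wide peaks that neither replicate list held were weak beside these. The first, at 3930828 to 3931084, had a score of 15.66, and 276 peaks of the chromosome scored higher. It was followed by 13156967 to 13157151 (score 15.01), 14004736 to 14005035 (14.87), 6418021 to 6418227 (14.64) and 15279034 to 15279375 (14.59). The last is the final peak of the chromosome and set the length used here. The left end of the chromosome was marked in all 3 lists, by peaks of 438, 449 and 360 bp that started at position 1 or 2, with scores of 54.95 in the series-wide list, 450.25 in replicate 1 and 420.8 in replicate 2.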

How the data were processed

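The deposited files are 3 peak lists, 1 for each CBP-1 ChIP sample and 1 for the series. The score of each peak is the authors' own, deposited with no scale stated. Per the file headers coordinates are in WormBase WS220, and the files' source column names MACS for the replicate lists and MACS v2 for the series-wide list. BWA and ce10 appear in the submitters' processing notes, with no version. Neither the call thresholds nor the controls nor any pooling of reads is stated there. A pooled call, or a difference in depth, could change how many weak peaks a list holds.

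From these lists peaks on chromosome II were counted by midpoint, in 3 segments of equal length (left arm, centre, right arm) and in 250 kb bins. Sharing required 1 bp of overlap. Densities were compared with exact two-sided binomial tests and shares with two-sided Fisher's exact tests, with Benjamini-Hochberg adjustment within each family (16 ratios of segments, 4 of density, 2 of support, 6 comparisons with other chromosomes per list). Intervals are 95% and cover counting error only. The named peaks were the 10 strongest shared, the 3 strongest of each segment, the 5 strongest in neither list and the 3 widest. Bins and gaps were named by the 5 fullest, the 5 emptiest, the 5 longest gaps of the left arm and the longest of each other segment. The members, comparisons and rules were chosen with earlier results of these data known. No genome or annotation of WS220 was used here, so base sequences and gene names are not given. Procedures were tested on simulated data. Python 3.11.15, numpy 2.4.6, scipy 1.17.1 and matplotlib 3.10.9 were used.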

Additional observations from a re-analysis of the deposited data

How the results depend on the processing

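The left arm stayed below the right arm under all 8 alternatives tried, with ratios from 0.511 to 0.803, each at an exact binomial p under 0.05. The settings that leave out a replicate take the other replicate's own list in place of the series-wide one, so the caller changes too, and a move there cannot be credited to the replicate alone. The ratio was 0.557 in the replicate 2 list and 0.616 in the replicate 1 list. With a centre from 5 to 12 Mb it was 0.729, and with the middle 50% as centre 0.5625. The highest, 0.803, came with the poor stretch taken out of the left arm alone. The difference of the arms from those of the other autosomes kept its call under all 6 alternatives (odds ratios from 0.495 to 0.636). The ratio of centre to arms was 1.49, against 0.980 in the replicate 2 list and 1.41 in the replicate 1 list. Among peaks in both lists it was 1.18 and lost its call. In the series-wide list it was 1.54 with the middle 50% as centre and 1.66 with a centre from 5 to 12 Mb. The centre share against other autosomes (odds ratio 1.17) lost its call under every alternative tried. It was 0.918 in the replicate 2 list and 1.03 in the replicate 1 list. It was 0.946 for peaks in both lists, 0.974 above the median score, 1.09 with the middle 50% as centre, 1.10 without the run of 24 close peaks and 1.13 with peaks under 1 kb apart merged. The density of chromosome II against the rest, 0.995 in the series-wide list, passed 1 without a call at 1.03 in the replicate 1 list, 1.00 in the replicate 2 list, 1.04 for peaks in both lists and 1.03 above the median score.

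Shares in both lists, 1 list and neither were 9.12%, 41.5% and 49.4% with a reciprocal overlap of 50%, and 42.97%, 46.2% and 10.8% above the median score. The share in both lists, centre against arms, missed the threshold with midpoints within 500 bp, above the median score and without the run of 24 close peaks. Under reciprocal overlap the odds ratio of the share in both lists, chromosome II against the rest, was 0.962, and that of centre against arms passed the threshold at 0.577. Replicate 2 peaks in replicate 1 fell to 19.7% and replicate 1 peaks in replicate 2 to 12.3% under that rule, which rejects pairs that differ in width by more than its limit; with lists of equal length they were 68.4% and 59.2%. The fullest bin held 192 peaks per Mb, 280 in 100 kb bins and 130 in 500 kb bins, and the emptiest held 12, with 0 in 100 kb bins. Medians of score and width did not move beyond their intervals without peaks wider than 2000 bp. Beyond these constructions the cause was not tested. The alternatives without the run of 24 peaks, without the poor 1.5 Mb stretch, with merged peaks in the comparison of autosomes, and the comparison of arms were chosen after seeing the data. No paired analysis was possible because only the ChIP samples have peak lists here.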
